A study of Mus musculus with 6 samples.

Results

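The genes examined here were the ERK feedback phosphatases and Sprouty genes of primary mouse chondrocytes, namely Dusp1, Dusp4, Dusp5, Dusp6, Dusp10, Spry1, Spry2, Spry4, Spred1 and Spred2. They were chosen by name, and all 10 were found among the 55416 genes of the deposited table and passed the filter on low counts. The wild-type (WT) chondrocytes came from knee joints of neonatal mice according to the labels (the supplementary methods name older mice), were cultured in DMEM/F12 with FBS, and were transfected with scrambled siRNA (siNC, the control) or with siRNA to Pkm2 (siPkm2), the M2 form of pyruvate kinase. RNA from 3 libraries per group was sequenced to learn what silencing of Pkm2 does in these cells. The genotype labels of siPkm2 replicates 2 and 3 carry other PKM numbers than that of replicate 1, while all 3 titles read siPKM2, and the 3 were treated as 1 group. The labels do not say whether replicates were separate animals or cultures, so every p-value measures the spread between these libraries only.

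Growth factor receptors pass their signal through RAS, RAF and MEK to the kinase ERK, and ERK in turn induces genes that switch the cascade off again. Dual-specificity phosphatases (the DUSP genes) remove phosphate from both the threonine and the tyrosine of active MAP kinases, whereas Sprouty and SPRED proteins restrain the cascade further up, around RAS and RAF. In cartilage this pathway is best known as a branch of fibroblast growth factor signalling, and the transcript levels of its inhibitors are often read as a record of pathway activity, although transcript levels alone do not measure kinase activity.

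The siRNA guides are shown first because their seeds, bases 2 to 8 of the guide, can also pair with transcripts other than Pkm. According to the supplement siPkm2 #3 was chosen for the work, but no source links a number to the sequenced libraries. The antisense strands of the designed siRNAs read as follows, with the seed in capitals.
scramble siNC antisense: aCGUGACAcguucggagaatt
siPkm2 #1 antisense: aUGGUACAaaugaugccagtt
siPkm2 #2 antisense: aCAUUCUUgauggucucugtt
siPkm2 #3 antisense: uGUUUCUCcagacagcaugtt
GAGAAAC, the DNA word complementary to the siPkm2 #3 seed, was present in 1 of the 10 genes, Dusp4, and in 17.9% of 13273 tested genes, searched in each gene's longest 3′ untranslated region. In Dusp4 the window that holds it spans chr8:34819391-34819420 on the plus strand of GRCm38 and reads as follows, with the site in capitals.
Dusp4 window: acagtcgagcaGAGAAACacacaggtgtgt
Spry1 held no antisense seed site of siPkm2 #1, #2 or #3, and Dusp5 held none either. Of the sense strands, that of siPkm2 #1 has its seed site, GATGCCA, in Spry1 and Spry4 (12.7% of genes), that of siPkm2 #2, GGTCTCT, in Spry4 and Spred2 (14.4%), and that of siPkm2 #3, ACAGCAT, in Dusp6 and Spred2 (14.2%). Dusp6 and Spred2 held the site for siPkm2 #1, TGTACCA (11.7% of genes), and Dusp6, Spry2 and Spred1 held that for siPkm2 #2, AAGAATG (17.4% of genes). A match is a match of letters and not a measured binding event.

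Promoters of 3 genes are shown because Dusp1 had the highest level of the 10 and Dusp5 and Spry1 had the furthest fold changes up and down, a choice made after their values were seen. Each is the 250 bases before the RefSeq start of the gene on GRCm38.p6, read 5′ to 3′ on the strand of the gene. Capitals mark CArG boxes in Dusp5, where serum response factor is known to bind, and the cAMP response element TGACGTCA in Dusp1, and the Spry1 window held neither.
Dusp5, chr19:53528895-53529144, plus strand: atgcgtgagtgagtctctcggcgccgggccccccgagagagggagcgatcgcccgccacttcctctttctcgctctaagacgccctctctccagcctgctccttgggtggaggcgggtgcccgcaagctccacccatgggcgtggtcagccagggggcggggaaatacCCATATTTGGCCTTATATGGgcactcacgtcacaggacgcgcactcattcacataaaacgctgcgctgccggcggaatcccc
Dusp1, chr17:26508473-26508722, minus strand: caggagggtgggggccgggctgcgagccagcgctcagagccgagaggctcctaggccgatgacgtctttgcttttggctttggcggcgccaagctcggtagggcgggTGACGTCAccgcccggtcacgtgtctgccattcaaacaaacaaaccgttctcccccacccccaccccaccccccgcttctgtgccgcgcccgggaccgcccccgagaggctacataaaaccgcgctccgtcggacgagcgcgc
Spry1, chr3:37639697-37639946, plus strand: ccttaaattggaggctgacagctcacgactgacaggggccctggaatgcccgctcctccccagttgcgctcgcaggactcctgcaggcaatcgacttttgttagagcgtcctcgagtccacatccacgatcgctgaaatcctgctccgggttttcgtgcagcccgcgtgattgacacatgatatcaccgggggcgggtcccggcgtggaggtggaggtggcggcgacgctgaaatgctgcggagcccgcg
In Dusp5 the 2 CArG boxes abut, from 82 to 73 and from 72 to 63 bases before the start, and 1.40% of 27025 promoters of this length held a CArG box on either strand. The cAMP response element of Dusp1 lies from 143 to 136 bases before the start, and 1.62% of promoters held one. The shorter word TGACG, which overlaps it, was found in Dusp1, Dusp5 and Spred2 (17.9% of promoters). The GC box GGGCGG was found in 6 of the 8 members with a RefSeq entry, Spry1 among them (32.9% of promoters). The windows of these 8 members were also rich in G and C, at 56.0 to 70.8%, beside a median of 52.0% over promoters. None of the 8 windows held the letters searched for AP-1 (TGAGTCA, 4.43%), ETS (CCGGAAGT, 2.93%), EGR (GCGGGGGCG, 2.56%), NF-kB (0.0851%) or the TATA box (TATAAA, 13.0%). All motifs were searched on both strands, and the absence of these letters says nothing about the factors.

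The libraries held between 22317065 and 25691096 estimated counts. Levels between libraries are given as CPM, counts scaled to the library total and by TMM factors, and levels between genes as the deposited TPM, which is per transcript length. Pkm, the targeted gene, had 2335, 2746 and 1674 CPM across siNC replicates 1, 2 and 3, and 336, 541 and 309 CPM across siPkm2. Its log2 fold change was -2.51 (adjusted p = 0.0738, edgeR quasi-likelihood test, Benjamini-Hochberg adjusted) and -2.53 with the replicate number as a block (adjusted p = 0.00932, same edgeR test), and the counts do not separate the PKM1 and PKM2 transcripts. Col2a1, the main cartilage collagen, was at 8526 to 36071 CPM. Among macrophage markers Ptprc reached at most 0.0932 CPM, Adgre1 0.200 CPM, Csf1r 2.14 CPM and Lyz2 3.63 CPM. Others were higher, with Cd14 at 23.5 CPM in siPkm2 replicate 2 and Cd68 at up to 55.5 CPM.

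Replicate 2 stood apart in both groups. A list of 17 inflammatory genes summed to 13860 CPM in siNC replicate 2 and 14478 CPM in siPkm2 replicate 2, against 373 to 570.2 CPM in the other 4 libraries. A list of 13 chondrocyte markers summed to 11709 and 16325 CPM in the replicate 2 libraries and to 48556 to 57769 CPM in the others. The macrophage list of 10 genes summed to 77.6 and 63.6 CPM in replicate 2 and to 10.3 to 21.6 CPM elsewhere, with 5 of the 10 genes under 1 CPM in every library and Cd68 the highest, at 55.5 CPM in siNC replicate 2. In such bulk samples fewer cells of a type and less RNA per cell cannot be told apart. Libraries with the same number deviated together across genes (correlations of 0.72, 0.79 and 0.72), so values within replicate pairs are given beside the group comparison, and results without pair 2 are given where they differ.

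**Figure D1:**
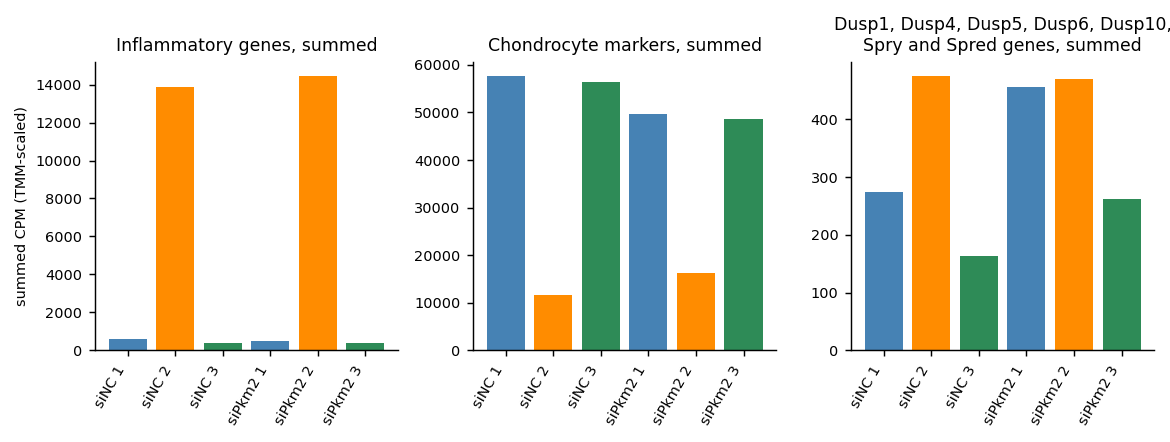
Summed CPM per library of the 17 inflammatory genes, the 13 chondrocyte markers and the 10 feedback genes, with bars coloured by replicate number. Replicate 2 of both groups carried the highest inflammatory sum and the lowest chondrocyte sum, and the feedback genes summed to 164 to 476 CPM in siNC and 262 to 469.5 CPM in siPkm2.

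Silencing of Pkm2 was accompanied by lower Spry1 in every replicate pair, by slightly higher Spred2 in every pair, and by higher Dusp1 and Dusp5 in pairs 1 and 3 with little difference in pair 2. In the comparison of the groups without a block, none of the 10 genes passed an adjusted p under 0.05 (edgeR quasi-likelihood test, Benjamini-Hochberg adjusted), and neither did any other of the 15269 genes tested (0%, and likewise 0% with a fold over 2). Unadjusted, 2 of the 10 genes, Dusp5 and Spry1, had a p under 0.05, against 17.6% of all genes, and DESeq2's Wald test with Benjamini-Hochberg adjustment called 1 of the 10, Spry1, against 7.56%. With the replicate number as a block, edgeR called 2 of the 10, or 20.0%, against 23.1% of all genes. These were Spred2, the 1 gene called higher (12.3% of all genes were called higher), and Spry1, the 1 gene called lower (10.8% were called lower). Spry1 alone also passed a fold of 2 with the block, against 5.83% of all genes. The shares called thus lay near those of all genes, and the group as a whole did not stand out by count. The groups did not overlap in Dusp5 and Spry1, 2 of the 10 genes, against 24.3% of all genes. Higher in siPkm2 in all 3 pairs were Dusp1, Dusp5 and Spred2 (30.5% of all genes were), and lower in all 3 pairs was Spry1 (30.6% were). The median log2 fold change of the 10 genes was 0.16 without and 0.18 with the block, beside -0.02 and -0.01 over all genes tested.

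**Figure D2:**
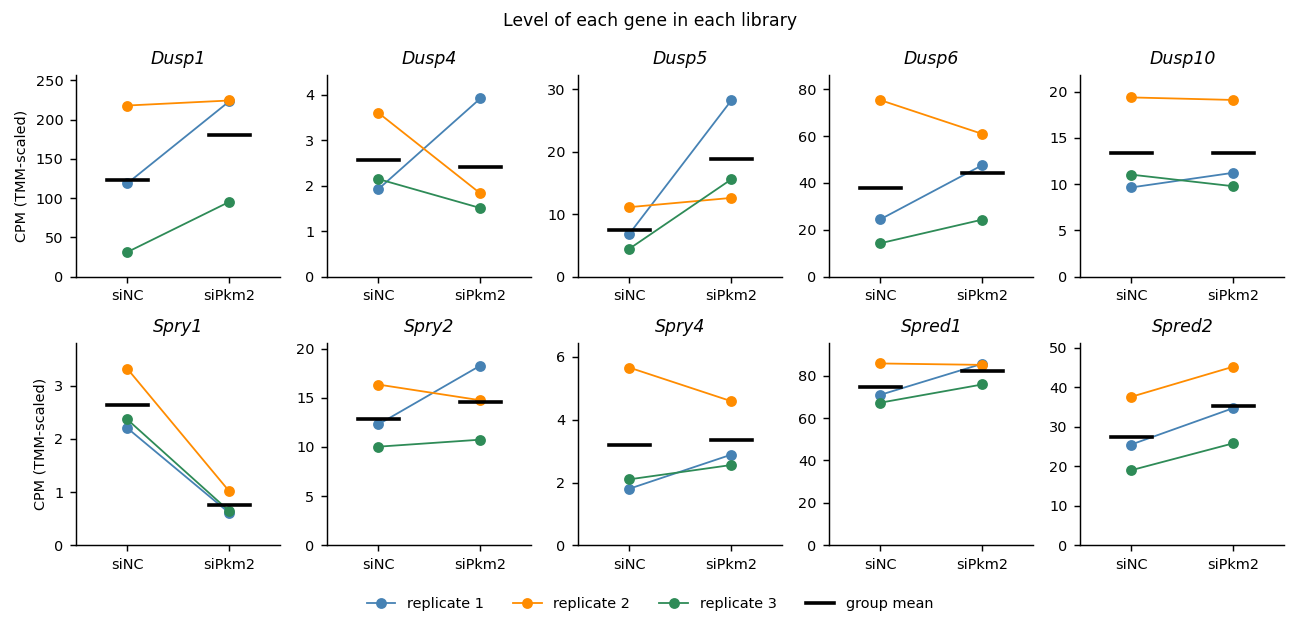
CPM of each of the 10 genes in each library, with a line joining the siNC and siPkm2 libraries of the same replicate number and black bars at the group means of 3 libraries. The 3 lines of Spry1 fall together and the 3 of Spred2 rise together, whereas the pair 2 line of Dusp6 and Spry4 runs against the other two.

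Of the inducible nuclear phosphatases, Dusp1 was by far the most abundant. Dusp1 (ENSMUSG00000024190, chromosome 17 from 26505590 to 26562128), which dephosphorylates p38 and JNK as well as ERK and is an immediate early gene of stress and growth factors, had 119, 218 and 31.4 CPM across siNC replicates 1, 2 and 3 and 224, 224 and 95.5 CPM across siPkm2, the order of replicates kept from here on. The siNC libraries spanned a 6.95-fold range, and the groups overlapped, since siPkm2 replicate 3 lay inside that range while replicates 1 and 2 lay just above it. Within pairs 1, 2 and 3, siPkm2 was 1.88, 1.03 and 3.04 times siNC. Its log2 fold change was 0.56 ± 0.68 (SE, n = 3, adjusted p = 0.729, edgeR quasi-likelihood test, Benjamini-Hochberg adjusted) and 0.84 ± 0.29 with the block (adjusted p = 0.0885, same edgeR test). The 3′ untranslated region of Dusp1 held 4 copies of ATTTA, a pentamer found in unstable messages, in 690 bases, or 5.80 per kb, beside 0.84 to 2.77 per kb in the other 9 genes and a median of 1.25 over all genes with a region. The span of Dusp1 given is GENCODE's, and the RefSeq promoter window shown above lies inside it. Over this span Dusp1 shares its locus with Ergic1 on the opposite strand. Ergic1 had 5044 to 7572 counts per library, beside 717 to 5770 for Dusp1. Since the use of strand in counting is not stated, reads of overlapping genes cannot be told apart here.

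Dusp5 (ENSMUSG00000034765, chromosome 19 from 53529109 to 53542431), a nuclear phosphatase specific to ERK, was at 6.85, 11.1 and 4.47 CPM in siNC and at 28.2, 12.6 and 15.6 CPM in siPkm2. All siPkm2 libraries lay above all siNC libraries, with siPkm2 replicate 2 just above siNC replicate 2. Pairs 1 and 3 showed ratios of 4.12 and 3.49, and pair 2 a ratio of 1.13. The fold change was 2.51 (log2 1.33 ± 0.44, SE, n = 3, unadjusted p = 0.0213, adjusted p = 0.206, edgeR quasi-likelihood test, Benjamini-Hochberg adjusted), and with the block the log2 value was 1.34 ± 0.39 (adjusted p = 0.0597, same edgeR test). The two-sided exact permutation p over the 6 libraries was 0.1, the lowest value that this design can give. The antisense gene AC137853.2 overlaps Dusp5 and had at most 8.09 counts in any library, beside 102 to 605 counts of Dusp5. Dusp5 made up 3.38, 2.82 and 6.13% of the summed TPM of the 5 phosphatases in siNC and 7.27, 3.20 and 8.87% in siPkm2.

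Dusp4 (ENSMUSG00000031530, chromosome 8 from 34807297 to 34819894), another inducible nuclear phosphatase, was at 1.92, 3.60 and 2.15 CPM in siNC and at 3.92, 1.83 and 1.51 CPM in siPkm2. The pairs pointed in different directions, with ratios of 2.04, 0.508 and 0.703. Its log2 fold change was -0.08 ± 0.48 (SE, n = 3, adjusted p = 0.953, edgeR quasi-likelihood test, Benjamini-Hochberg adjusted), and its counts of 33 to 89 per library limit what could be seen. The carrier of the siPkm2 #3 site thus showed no call in either direction.

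Dusp6 (ENSMUSG00000019960, chromosome 10 from 99263231 to 99267489), the cytoplasmic phosphatase specific to ERK and a common readout of the pathway, was at 24.5, 75.3 and 14.3 CPM in siNC and at 47.6, 60.9 and 24.4 CPM in siPkm2. Replicate 2 was the highest library in both groups, and siNC replicate 2 was 3.89 times the mean of the other siNC libraries. Ratios within pairs were 1.95, 0.808 and 1.71. The log2 fold change was 0.22 ± 0.64 (SE, n = 3, adjusted p = 0.898, edgeR quasi-likelihood test, Benjamini-Hochberg adjusted) and 0.46 ± 0.26 with the block (adjusted p = 0.234, same edgeR test). In siNC, replicate 2 thus differed more from the other libraries than siPkm2 differed from siNC in any pair.

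Dusp10 (ENSMUSG00000039384, chromosome 1 from 184013302 to 184075636) prefers JNK and p38 to ERK and so stands somewhat outside the name of the group. It was at 9.65, 19.4 and 11.03 CPM in siNC and at 11.2, 19.1 and 9.78 CPM in siPkm2, nearly the same library by library. Pair ratios were 1.16, 0.986 and 0.886. With the block its log2 fold change was 0.01 ± 0.13 (SE, n = 3, adjusted p = 0.970, edgeR quasi-likelihood test, Benjamini-Hochberg adjusted), the smallest SE among the 5 phosphatases.

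**Figure D3:**
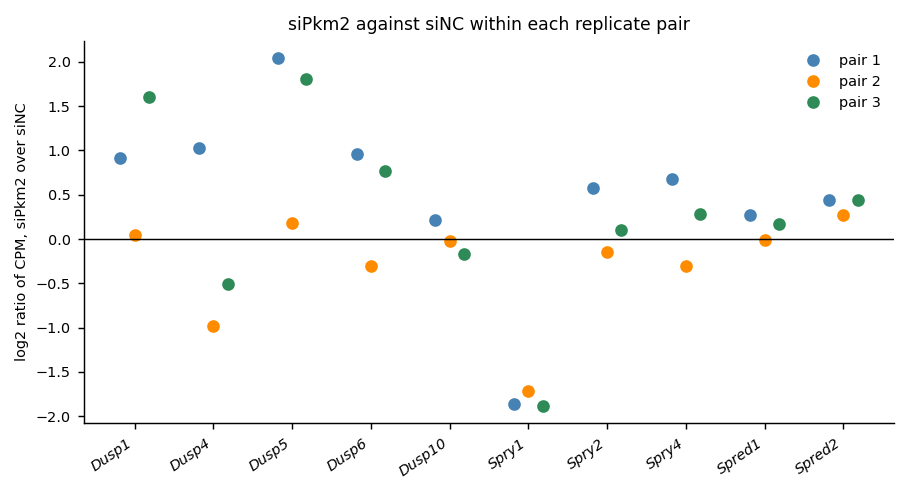
Log2 ratio of CPM, siPkm2 over siNC, within each replicate pair for the 10 genes. Pair 2 is the lowest of the 3 pairs for 8 genes, Dusp10 and Spry1 excepted, and it lies below 0 for Dusp4, Dusp6, Dusp10, Spry2, Spry4 and Spred1.

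The Sprouty genes encode adaptors that growth factors induce and that block signalling between the receptor and RAF. Spry1 (ENSMUSG00000037211, chromosome 3 from 37639947 to 37644598) was at 2.20, 3.32 and 2.36 CPM in siNC and at 0.606, 1.01 and 0.640 CPM in siPkm2, from 54.81, 82 and 54.32 estimated counts and 13, 26 and 14 estimated counts. Every siPkm2 library lay well below the lowest siNC library. Ratios within pairs were 0.275, 0.305 and 0.271, close to one another, with replicate 2 no exception. The fold change was 0.289 (log2 -1.79 ± 0.38, SE, n = 3, unadjusted p = 0.00267, adjusted p = 0.124, edgeR quasi-likelihood test, Benjamini-Hochberg adjusted). With the block Spry1 fell by 1.81 on the log2 scale (SE 0.28, adjusted p = 0.0169, same edgeR test), and the two-sided exact permutation p was again 0.1. The size of the difference held without each pair, whereas the call held without pair 2 and was lost without pair 1 or pair 3. The log2 fold change with the block was -1.79 without pair 1 (adjusted p = 0.0922), -1.77 without pair 3 (adjusted p = 0.120) and -1.87 without pair 2 (adjusted p = 0.0108, same edgeR test), and without pair 1 or pair 3 edgeR called 0 of all genes tested. Gm42922 overlaps Spry1 on the opposite strand and had at most 4 counts in any library.

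Spry2 (ENSMUSG00000022114, chromosome 14 from 105891947 to 105896819), the most abundant Sprouty transcript, was at 12.3, 16.3 and 10.0 CPM in siNC and at 18.3, 14.7 and 10.7 CPM in siPkm2. The groups overlapped, and pair ratios were 1.49, 0.902 and 1.07. With the block its log2 fold change was 0.17 ± 0.17 (SE, n = 3, adjusted p = 0.480, edgeR quasi-likelihood test, Benjamini-Hochberg adjusted). Spry4 (ENSMUSG00000024427, chromosome 18 from 38586247 to 38601415), like Dusp6 a common readout of fibroblast growth factor signalling, was at 1.80, 5.66 and 2.10 CPM in siNC and at 2.89, 4.59 and 2.56 CPM in siPkm2. As for Dusp6, replicate 2 was the highest in each group, and siNC replicate 2 was 2.90 times the mean of the other siNC libraries. Ratios within pairs were 1.60, 0.811 and 1.22, with a log2 fold change of 0.19 ± 0.27 with the block (SE, n = 3, adjusted p = 0.629, edgeR quasi-likelihood test, Benjamini-Hochberg adjusted). Spry1 made up 11.5, 12.6 and 15.2% of the summed Sprouty TPM in siNC and 2.54, 4.79 and 4.37% in siPkm2, while the sum itself was 11.45, 19.0 and 11.05 TPM in siNC and 15.8, 14.8 and 10.1 TPM in siPkm2.

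SPRED proteins hold neurofibromin, a RAS inactivator, at the membrane. Spred2 (ENSMUSG00000045671, chromosome 11 from 19924375 to 20024026) was at 25.5, 37.6 and 19.0 CPM in siNC and at 34.7, 45.2 and 25.8 CPM in siPkm2. The groups overlapped because replicates differed, yet each siPkm2 library exceeded its siNC partner, by ratios of 1.36, 1.20 and 1.36. Its log2 fold change was 0.37 ± 0.31 (SE, n = 3, adjusted p = 0.598, edgeR quasi-likelihood test, Benjamini-Hochberg adjusted), and with the block it rose by 0.38 ± 0.09 on the log2 scale (adjusted p = 0.0380, same edgeR test). Its log2 fold change with the block was 0.35 without pair 1 (adjusted p = 0.192) and 0.36 without pair 3 (adjusted p = 0.218, same edgeR test), close in size but not called. It was not called by limma on log2(TPM + 1) with the block either (0.36, adjusted p = 0.0987). Spred1 (ENSMUSG00000027351, chromosome 2 from 117121374 to 117182279) varied least of the 10, at 70.9, 85.8 and 67.3 CPM in siNC and 85.6, 85.1 and 75.9 CPM in siPkm2. Pair ratios were 1.21, 0.992 and 1.13, and the log2 fold change with the block was 0.14 ± 0.09 (SE, n = 3, adjusted p = 0.276, edgeR quasi-likelihood test, Benjamini-Hochberg adjusted).

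**Figure D4:**
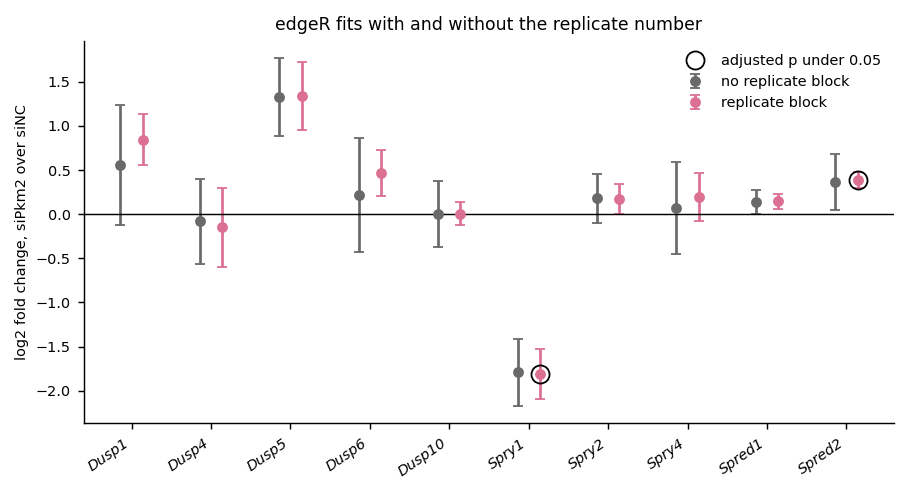
Log2 fold change, siPkm2 over siNC, of each gene by edgeR without (grey) and with (pink) the replicate number as a block, with bars of 1 standard error and rings around values with an adjusted p under 0.05. Rings mark Spry1 and Spred2 with the block, and the bars of Dusp1, Dusp6, Spry4 and Dusp10 shorten most.

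Leaving out pair 2, the pair with the high inflammatory sum, moved the count. With the block and 4 libraries, which leave little to estimate the spread, 5 of the 10 genes passed, against 39.1% of 15185 genes tested. Dusp1 rose by 1.23 ± 0.16 (SE) on the log2 scale (adjusted p = 0.00193), Dusp5 by 1.92 ± 0.15 (adjusted p = 0.000324) and Dusp6 by 0.86 ± 0.11 (adjusted p = 0.00160), each by edgeR quasi-likelihood test, Benjamini-Hochberg adjusted. Spred2 rose by 0.43 ± 0.10 (adjusted p = 0.0165) and Spry1 changed by -1.87 ± 0.39 (adjusted p = 0.0108) by the same edgeR test. With all 3 pairs, DESeq2's Wald test with the block and Benjamini-Hochberg adjustment called 4 of the 10, Dusp1, Dusp5, Spry1 and Spred2, against 26.0% of all genes. The part of the inflammatory signal of replicate 2 in the smaller ratios of pair 2 was not tested.

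By deposited TPM, which allows genes to be compared per length, the order in siNC ran from Dusp1 at 115 ± 92.2 (SD, n = 3) over Dusp6 at 27.0 ± 22.8 and Spred1 at 20.4 ± 3.57 to Spred2 at 11.9 ± 4.28, Spry2 at 10.9 ± 3.17, Dusp10 at 8.24 ± 3.70 and Dusp5 at 5.25 ± 2.59. Spry1 at 1.80 ± 0.544, Dusp4 at 1.61 ± 0.661 and Spry4 at 1.12 ± 0.812 closed it. Neighbours in this order overlapped across libraries except Spred1 with Spred2 and Dusp5 with Spry1. In siPkm2 Dusp1 stood at 163 ± 67.9 TPM (SD, n = 3), clear of Dusp6 at 30.7 ± 14.3, and Dusp5 at 12.6 ± 5.11 stood ahead of Spry2 at 11.9 ± 2.88 and Dusp10 at 8.003 ± 3.34, with all 3 overlapping. Spry1 came last at 0.517 ± 0.169 TPM, below every library of Spry4 at 1.12 ± 0.400. Dusp1 alone made up 57.4 to 78.4% of the summed TPM of the 5 phosphatases in siNC and 72.0 to 76.9% in siPkm2.

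The 10 genes varied in several ways across the 6 libraries. Likeness was measured as the root mean square difference of log2(CPM + 0.5), centred per gene, so that smaller is more alike. The most alike of the 10 were Dusp10 and Spry4, at 0.183, and the least alike Dusp5 and Spry1, at 1.40. Among 11236 genes with a mean of at least 5 CPM, the nearest to Dusp6 were Car12 (0.109), Tuft1 (0.185), Trim16 (0.187), Tbc1d2 (0.202) and Arhgap22 (0.202). Car12, a carbonic anhydrase, was at 21.6, 52.6 and 10.9 CPM in siNC and 38.2, 52.0 and 20.1 CPM in siPkm2, high in replicate 2 like Dusp6. The nearest to Spry4 were Trim56 (0.0693), Homer3 (0.0973), Arrdc3 (0.106), Zfp365 (0.117) and Rnf217 (0.126). These values describe 6 libraries that share their pairing and the high replicate 2.

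The rest of the pathway, from ligands to induced transcripts, was followed through 133 further genes in 9 lists, of which 131 were in the table and 124 were tested. Without a block none passed (edgeR quasi-likelihood test, Benjamini-Hochberg adjusted), 17 had an unadjusted p under 0.05 (17.6% of all genes did), and DESeq2's Wald test called 11 (7.56% of all genes). With the block 25 of 124 passed, 15 higher and 10 lower, or 20.2% beside the 23.1% of all genes. Their median log2 fold change was 0.08 without and 0.12 with the block. The counts of the single lists below are to be read beside the 12.3% of all genes called higher and the 10.8% called lower.

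Among 9 tested other dual-specificity phosphatases, 1 rose and 2 fell with the block (edgeR quasi-likelihood test, Benjamini-Hochberg adjusted). Dusp16, which like Dusp10 acts on JNK and p38, rose by 0.71 on the log2 scale (adjusted p = 0.0225, same edgeR test), while Dusp3 fell by 0.71 (adjusted p = 0.0308) and Dusp22 fell by 0.45 (adjusted p = 0.0360). Dusp9, an ERK phosphatase, had the highest log2 fold change of that list, 1.59, and did not pass (adjusted p = 0.0663, same edgeR test). Of 15 other feedback inhibitors, 1 rose and 1 fell. Cbl, a ubiquitin ligase that removes receptors, rose by 0.48 (adjusted p = 0.0238), and Il17rd, also known as Sef, a membrane inhibitor of fibroblast growth factor signalling, fell by 0.81 (adjusted p = 0.0478, same edgeR test). Errfi1, an inhibitor of the EGF receptor, was at 60.4, 379 and 53.9 CPM in siNC and 247, 311 and 162 CPM in siPkm2, the same pattern of a high siNC replicate 2 as in Dusp6, with an adjusted p of 0.130 with the block (edgeR).

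Upstream, 3 of 14 receptor tyrosine kinases fell and none rose with the block (edgeR quasi-likelihood test, Benjamini-Hochberg adjusted), or 21.4% called, near the 23.1% of all genes. Ddr2, a collagen receptor, fell by 0.81 on the log2 scale (adjusted p = 0.0112), from 471, 436 and 456 CPM to 261, 247 and 271 CPM. Insr fell by 0.42 (adjusted p = 0.0213) and Pdgfrb by 0.46 (adjusted p = 0.0415), the latter with overlapping groups. Of 14 tested ligands 1 rose, Pdgfc, by 0.36 (adjusted p = 0.0497), and Ereg at a log2 fold change of 1.52 did not pass (adjusted p = 0.0504, same edgeR test). Of 15 adaptors and RAS activators 2 rose and 2 fell. Nras, a RAS isoform, fell by 1.08 (adjusted p = 0.00942) from 87.4, 58.0 and 81.5 CPM to 42.9, 27.6 and 37.1 CPM. The adaptor Shc1 rose by 0.64 (adjusted p = 0.0142), the phosphatase Ptpn11, which carries the signal forward, rose by 0.56 (adjusted p = 0.0147), and the FGF receptor substrate Frs3 fell by 0.71 (adjusted p = 0.0463, same edgeR test).

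Within the cascade itself, 3 of 14 RAF, MEK and ERK genes and scaffolds rose with the block and none fell (edgeR quasi-likelihood test, Benjamini-Hochberg adjusted), again 21.4% beside 23.1% of all genes. These were the MEK partner Lamtor3, by 0.58 on the log2 scale (adjusted p = 0.0186), the MEK gene Map2k1, by 0.39 (adjusted p = 0.0263), and the scaffold Iqgap1, by 0.52 (adjusted p = 0.0406). In the parallel JNK and p38 branch, on which Dusp1, Dusp10 and Dusp16 act, 4 of 12 genes rose and 1 fell. Mapk14, the main p38 kinase, rose by 0.63 (adjusted p = 0.0160), Map3k7 rose by 0.48 (adjusted p = 0.0189), Map2k4 by 0.38 (adjusted p = 0.0245) and Map2k3 by 0.59 (adjusted p = 0.0493). Map2k6, an activator of p38, fell by 1.86 (adjusted p = 0.0151, same edgeR test), from 5.04, 3.56 and 8.14 CPM to 1.31, 1.40 and 1.69 CPM.

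Downstream of ERK, 1 of 11 effectors fell with the block, the kinase Rps6ka2, by 0.56 on the log2 scale (adjusted p = 0.0286, edgeR quasi-likelihood test, Benjamini-Hochberg adjusted). Of 20 ERK-induced transcripts 3 rose and none fell, a smaller share than the 23.1% of all genes called and near the 12.3% called higher. Junb rose by 1.05 (adjusted p = 0.0286), Fos by 0.82 (adjusted p = 0.0248) and Ier2 by 0.53 (adjusted p = 0.0367, same edgeR test), all 3 of them immediate early transcripts, as Dusp1 is. Junb was at 60.3, 128 and 32.2 CPM in siNC and 147, 168 and 90.3 CPM in siPkm2. Replicate 2 was thus the highest in both groups and replicate 3 the lowest, an order also seen for Dusp1, Dusp6 and Spred2. For Dusp1 in siPkm2, replicates 1 and 2 were nearly equal. Fos and Ier2 did not share this order, since replicate 1 was their highest library in both groups. The list's median log2 fold change with the block was 0.43, and 14 of the 20 genes had a positive value. Its lowest value was that of Egr3, -0.55, which did not pass (adjusted p = 0.425, same edgeR test). Egr3 was higher in siPkm2 in only 1 pair.

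**Figure D5:**
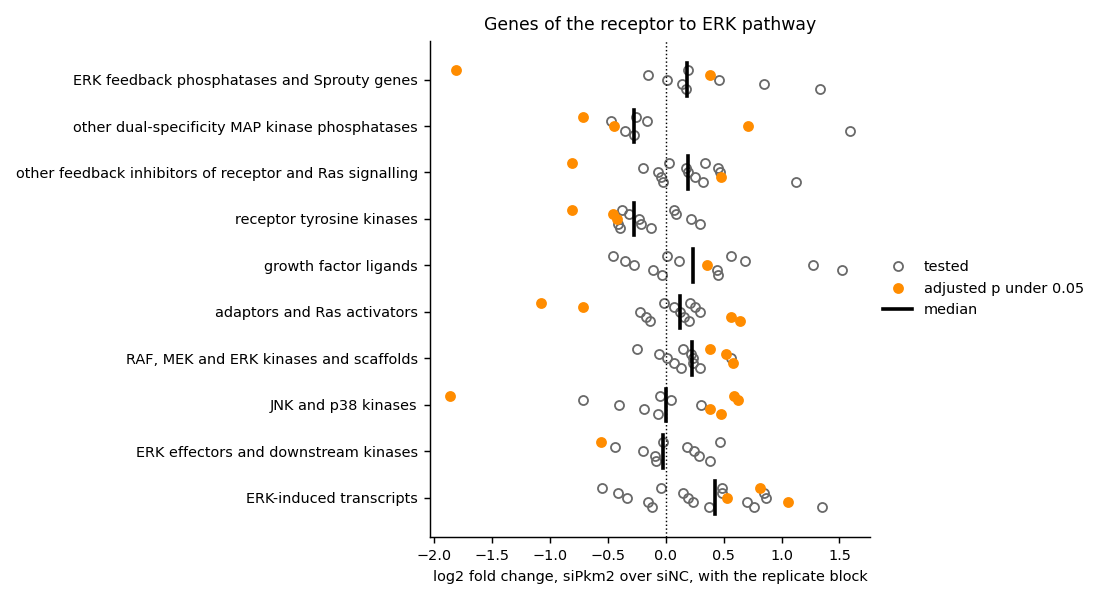
Log2 fold change with the replicate block of the 10 genes and of 9 further lists of the receptor to ERK pathway, with 1 point per tested gene, filled where the adjusted p was under 0.05, and a bar at the list's median. Called genes lie on both sides of 0 in the lists of phosphatases, inhibitors, adaptors and JNK and p38 kinases, on the lower side among receptors and effectors, and on the higher side among ligands, RAF, MEK and ERK genes and induced transcripts.

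Interferon-stimulated genes, a list of 18, moved with the siRNA and with replicate 2 together. They summed to 143, 2578 and 176 CPM in siNC and to 1789, 4773 and 1402 CPM in siPkm2. The siNC library with the highest interferon sum, replicate 2, was also the highest siNC library for each of the 10 feedback genes. In siPkm2 replicate 2 again had the highest interferon sum, but it was the lowest siPkm2 library for Dusp5. Dusp5 was there at 12.6 CPM, beside 28.2 and 15.6 CPM in replicates 1 and 3. Nor was replicate 2 the highest siPkm2 library for Dusp4, Spry2 and Spred1. Of the 18 genes 9 rose with the block and none fell (edgeR quasi-likelihood test, Benjamini-Hochberg adjusted). Their part in the values of the feedback genes was not tested. Lists of markers for other cell types were summed as well. Synovial and fibroblast markers summed to 4722 to 8736 CPM in siNC and 3349 to 7350 CPM in siPkm2, and with the block 3 of 7 tested rose and none fell (42.9% called, beside 23.1% of all genes). These were Prg4, which encodes lubricin, from 15.9, 23.6 and 22.5 CPM to 129, 41.5 and 133 CPM (adjusted p = 0.0271), Pdpn (adjusted p = 0.0272) and Cd34 (adjusted p = 0.0274, edgeR quasi-likelihood test, Benjamini-Hochberg adjusted). The list did not move as one, and 5 of the 7 had a positive log2 fold change with the block. Thy1 was lower in all 3 pairs, from 25.7, 65.7 and 52.1 CPM to 6.01, 54.8 and 34.0 CPM (adjusted p = 0.108, same edgeR test). Col1a1 went from 2956, 3070 and 5727 CPM to 1404, 3164 and 3258 CPM, lower in pairs 1 and 3. Of 4 tested osteoblast markers 1 fell, Ibsp, by 1.45 on the log2 scale (adjusted p = 0.0278, same edgeR test). Also higher with the block were Des, 1 of 2 tested muscle markers (adjusted p = 0.0360), Cd14, 1 of 5 tested macrophage markers (adjusted p = 0.0432), and Matn3, 1 of 13 chondrocyte markers (adjusted p = 0.0206, same edgeR test). The other tested muscle marker, Acta1, was lower in all 3 pairs and did not pass (log2 fold change -1.57 with the block, adjusted p = 0.0545, same edgeR test). The part of these cell types in the values of the feedback genes was not tested. Summed levels in siNC and siPkm2 were, for osteoblast markers, 73.9 to 479.8 and 80.1 to 208 CPM, for muscle markers 3.98 to 5.13 and 5.73 to 11.6 CPM, and for endothelial markers 0.641 to 1.29 and 1.01 to 2.10 CPM.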

How the data were processed

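RNA-seq libraries of 3 siNC and 3 siPkm2 samples were analysed. The authors deposited estimated counts per gene, not normalized and some of them fractional (Dusp5 and Spry1 among the 10 genes), and TPM values scaled to the same total in each library. The deposited table is named for DESeq2 and also holds the authors' own fold changes, log2 fold changes and p-values, which were not used. The submitters' processing notes name edgeR and mm9 without a role, and the aligner and the counting method are not given in the sources used here. Positions are from GENCODE M21 on GRCm38, which held 52083 of the 55416 identifiers.

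Counts were rounded, and edgeR 4.0.16 in R 4.3.3 was applied (filterByExpr, TMM, quasi-likelihood test, Benjamini-Hochberg adjustment over 15269 genes), with alternatives in limma 3.58.1 and DESeq2 1.42.0. Scripts were tested on simulated data. Genes passed at an adjusted p under 0.05, with or without a fold over 2. The SE of an edgeR log2 fold change was derived from the test. It is the absolute log2 fold change divided by the square root of the quasi-likelihood F statistic. Depth was alike in both groups, between 22317065 and 25691096 counts, and no 2 libraries of a group agreed within sampling noise (52.6 to 73.4% of genes differed). The labels give both groups replicate numbers 1 to 3 without saying what they stand for. Deviations of same-numbered libraries correlated at 0.72, 0.79 and 0.72, and all others at 0.22 or below, so the number was used as a block beside the comparison without it. From each further list, up to 5 genes passing with the block and those with the lowest and highest fold change could be named. The 10 genes and all lists were chosen with earlier results of these data known. Tried besides were upper-quartile and RLE factors, DESeq2, other filters, limma on TPM, the block, and each library or pair left out. Promoters are RefSeq's, with an entry for 8 of the 10 genes, and Dusp4 and Spry4 had none.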

Additional observations from a re-analysis of the deposited data

How the results depend on the processing

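Without a block, none of the 10 genes and none of the other pathway genes passed by edgeR (0 of 10 and 0 of 124), nor with any single library left out, with RLE or upper-quartile factors or with other filters. DESeq2 without a block called 1 of the 10 and 11 pathway genes, against 7.56% of 15269 genes. At a fold over 2 it called 1 of the 10, against 445 of all genes. The replicate block, in a paired fit, called 2 of the 10 and 25 pathway genes, against 23.1% of all genes. At a fold over 2 the block called 1 of the 10, against 5.83%. With the block, the count was 0 without pair 1 and 0 without pair 3, where edgeR called 0 of all genes tested. The count was 5 without pair 2, against 39.1% of 15185 genes. By DESeq2 with the block it was 4, against 26.0%. Leaving out a pair leaves 4 libraries. The log2 fold change of Pkm was -2.51 by DESeq2 (adjusted p = 1.21e-11) and -2.53 with the block, and ran from -2.80 to -2.34 with each library left out. Spry1 ran from -2.06 to -1.59, Dusp5 from 0.91 to 1.73, Dusp1 from 0.11 to 1.27 and Spred2 from 0.15 to 0.67 in the same way, all without a change of sign. Signs turned for 5 genes with small values. With single libraries left out, Dusp4 ran from -0.62 to 0.25, Dusp6 from -0.17 to 1.19, Dusp10 from -0.34 to 0.37, Spry2 from -0.020 to 0.39 and Spry4 from -0.22 to 0.78. With the block, Dusp4 was 0.30 without pair 2 and 0.026 without pair 3, and without pair 1 Dusp10 was -0.094, Spry2 -0.028 and Spry4 -0.032. Dusp10 was also -0.061 with upper-quartile factors, -0.0035 with at least 10 counts in every library, -0.026 by limma on log2(TPM + 1), with or without the block, and -0.028 on log2(TPM + 0.1). The cause of these changes was not tested. Fewer than 100 counts per library for Spry1 and Dusp4, and 45 to 140 counts for Spry4, limit the precision of these genes.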
